A study of Mus musculus with 16 samples.

Results

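The axon guidance ligands and receptors are described here as 8 gene families in progenitor cells of the mouse cochlea. Members were the protein-coding genes whose symbols name an Eph receptor, an ephrin, a semaphorin of classes 3 to 7, a plexin, a netrin, an Unc5 receptor, a Slit or a Robo. The rule used names and no measured value. It found 65 of the 48709 gene identifiers in the RNA tables, made up of 14 Eph receptors, 8 ephrins, 20 semaphorins, 9 plexins, 3 netrins, 4 Unc5 receptors, 3 Slits and 4 Robos. Ntn3 was not analysed here. The study's title names Yap/Tead and self-renewal of organ of Corti progenitors, the precursors of the hearing epithelium. The E13.5 group held p27-GFP+ cells and the E12.0 group Sox2-GFP+ cells, in each case sorted by FACS from embryonic cochlea. RNA-seq covered 2 libraries per stage, ATAC-seq 3 per stage, H3K27ac CUT&RUN 2 per stage and pan-Tead CUT&RUN 2 libraries at E12.0 alone. The labels describe neither the reporter alleles nor the strain, nor which litters the replicates came from, and p-values here measure only the spread between the libraries at hand. Stage and sorting reporter change together and cannot be told apart.

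Eph receptors are receptor tyrosine kinases that are activated by ephrins on the surface of neighbouring cells, the A class mainly by membrane-anchored ephrin-As and the B class by transmembrane ephrin-Bs. Semaphorins act on plexins, the secreted class 3 mostly through the co-receptors neuropilin-1 and -2, while netrins act through Dcc, neogenin and the Unc5 receptors and Slits act through Robos. In the cochlea these families are best known for steering spiral ganglion axons, and outside the nervous system they set tissue boundaries, adhesion and cell movement.

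Read depth and RNA composition differed between the stages. Summed expected counts were 17057751 and 19570946 in the E13.5 libraries, against 9412326 and 9810603 in the E12.0 libraries. The mitochondrial ribosomal RNA mt-Rnr2 took 0.295% and 0.18% of counts at E13.5, against 17.0% and 13.2% at E12.0. The median gap between gene length and effective length, a quantity set by fragment size, was 189 and 188 bases at E13.5, against 146 and 141 at E12.0. The prosensory genes, defining for the sorted cells, were present in every library. Their summed level over 8 genes was 2420 and 2374 CPM at E13.5, against 890.0 and 755 CPM at E12.0. CPM are expected counts put on a common library total with TMM factors. Jag1 and Isl1 made up most of each sum. Of the 8 genes, 5 were called higher and 2, Hey2 and Prox1, were not called. Lfng was called lower (log2 fold change, E13.5 over E12.0, -2.29 ± 0.37, edgeR adjusted p = 0.000708). The list includes Sox2 and Cdkn1b (p27), the genes the sorting reporters are named after, so the sum is not independent of the sort. Markers of other cell types differed between stages as well. The 9 neuronal markers summed to 26.1 and 21.4 CPM at E13.5, against 37.8 and 45.6 CPM at E12.0. Of the 6 tested, 1 was called lower and 5 were not called. The lower call was Neurod1, at 0 and 0.0424 CPM at E13.5, against 7.84 and 13.7 CPM at E12.0 (log2 fold change -8.46 ± 1.02, edgeR adjusted p = 0.000134). Among those not called, Elavl3, Elavl4, Stmn2 and Pou4f1 had negative log2 fold changes. Tubb3 went the other way, with means of 9.58 CPM at E13.5 and 4.71 CPM at E12.0 (edgeR adjusted p = 0.137). The 8 mesenchymal markers summed to 367 and 466 CPM at E13.5, against 1274 and 1142 CPM at E12.0, nearly all of it the matrix gene Lum. The 6 markers of glia and neural crest summed to 646 and 681 CPM at E13.5, against 1792 and 2102 CPM at E12.0. Of the 4 tested, Erbb3, which made up most of that sum, was called lower, while Sox10 (181 and 202 CPM at E13.5, against 49.5 and 51.8 CPM at E12.0) and Cdh19 were called higher. The 6 endothelial markers summed to 0.619 and 1.06 CPM at E13.5, against 4.40 and 0.118 CPM at E12.0, with 5 of the 6 at 0 in replicate 2 of E12.0. Erythroid markers summed to at most 1.29 CPM in any library, and the 5 melanocyte markers to 2.76 and 27.2 CPM at E13.5, against 0.275 and 0.118 CPM at E12.0. The 5 immune markers summed to 3.38 and 1.19 CPM at E13.5, against 11.97 and 2.24 CPM at E12.0. The 5 epithelial markers summed to 1231 and 1600 CPM at E13.5, against 1820 and 1782 CPM at E12.0. Of these 5, Epcam was called lower (log2 fold change -1.40 ± 0.28), Krt18 higher (1.21 ± 0.24) and 3 were not called. In bulk RNA, fewer cells of a type and less RNA per cell cannot be told apart. The part of these differences in the results below was not tested.

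Of the 65 members, 53 passed the filter on low counts and 12 did not. At E13.5, 18 of the 53 were called higher and 9 lower than at E12.0, and 26 were not called. These counts are 34.0% and 17.0% of the members tested. Among all 15982 genes tested, 22.4% were called higher and 23.5% lower, by edgeR's quasi-likelihood test at an adjusted p threshold of 0.05. With the further demand of a 2-fold difference, 15 members (28.3%) were higher and 6 (11.3%) lower, against 19.7% and 20.9% of all genes. The median log2 fold change, E13.5 over E12.0, was 0.18 over the members and 0.05 over all genes. The semaphorins held 8 of the 18 higher calls and 1 lower call. Eph receptors split evenly, with 3 higher and 3 lower, the ephrins had 1 higher and 2 lower, and the plexins 3 higher and 2 lower. The 2 Robos tested and 1 of the 2 Slits tested were higher, 1 Unc5 receptor was lower and no netrin was called. Members tested had a median length of 4141 bases, against 2296 over all genes tested. Lengths here are those given for replicate 1 of E12.0, and the length given for a gene can differ between libraries. Of the 53, 29 lay among the genes above 3986 bases, the longest group when genes were split into 5 groups of nearly equal size. The median log2 fold change in that group was -0.02 over all genes and 0.07 over the members. Leaving out replicate 1 of E12.0 gave 11 members higher and 6 lower among 56 tested. It kept 10 of the 18 higher calls and 6 of the 9 lower calls. Fewer genes were called higher over all genes as well when 1 library was left out.

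**Figure D1:**
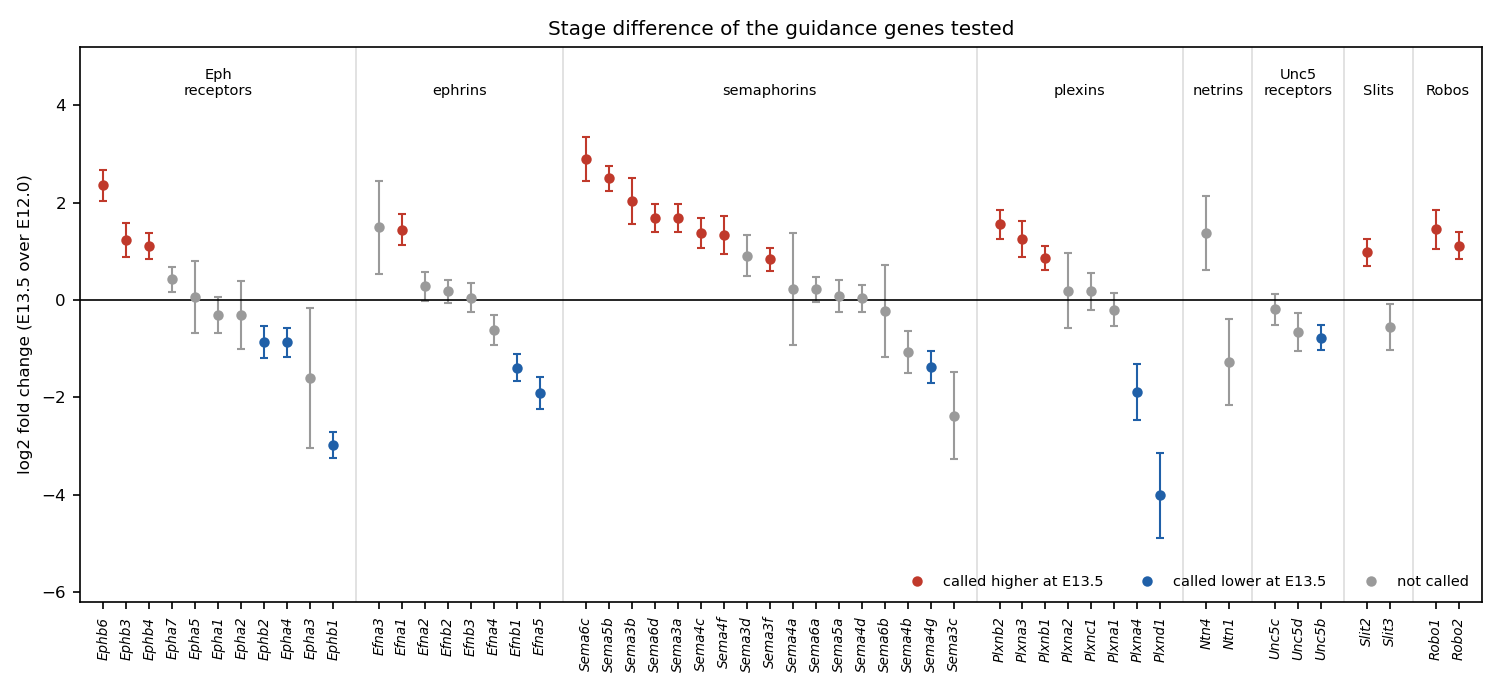
Log2 fold change of RNA, E13.5 over E12.0, for the 53 guidance genes tested, grouped by family and ordered within it; bars are ± 1 SE of the edgeR fit over 2 libraries per stage. Colour marks the 18 genes called higher, the 9 called lower and the 26 not called; semaphorins lean to the upper side with 8 higher against 1 lower, while Eph receptors run from 2.36 for Ephb6 to -2.98 for Ephb1.

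The largest rises among called members were those of Sema6c and Sema5b and the largest falls those of Plxnd1 and Ephb1. Their promoters are printed because these genes bound the range of the families and the study concerns Tead, whose core motif is GGAATG. Each line runs 5′ to 3′ on the gene's strand, from 250 bases before to 50 after the RefSeq start in GRCm38.p6. The windows are chr3:95160170-95160469 (plus strand) for Sema6c, chr16:35541112-35541411 (plus) for Sema5b, chr6:115994956-115995255 (minus) for Plxnd1 and chr9:102354644-102354943 (minus) for Ephb1. Capitals mark a match to GGAATG or its reverse complement CATTCC.
Sema6c: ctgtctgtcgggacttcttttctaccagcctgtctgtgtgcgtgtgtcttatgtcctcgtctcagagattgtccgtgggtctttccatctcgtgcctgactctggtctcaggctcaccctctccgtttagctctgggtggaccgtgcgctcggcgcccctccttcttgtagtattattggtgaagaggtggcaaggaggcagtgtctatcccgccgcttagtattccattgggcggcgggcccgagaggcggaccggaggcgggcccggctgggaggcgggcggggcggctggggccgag
Sema5b: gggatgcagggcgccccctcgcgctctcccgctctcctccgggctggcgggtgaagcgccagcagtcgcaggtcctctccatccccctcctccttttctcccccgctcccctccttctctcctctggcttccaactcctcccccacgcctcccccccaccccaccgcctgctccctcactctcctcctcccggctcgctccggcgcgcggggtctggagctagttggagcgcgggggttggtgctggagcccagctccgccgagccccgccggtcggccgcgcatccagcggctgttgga
Plxnd1: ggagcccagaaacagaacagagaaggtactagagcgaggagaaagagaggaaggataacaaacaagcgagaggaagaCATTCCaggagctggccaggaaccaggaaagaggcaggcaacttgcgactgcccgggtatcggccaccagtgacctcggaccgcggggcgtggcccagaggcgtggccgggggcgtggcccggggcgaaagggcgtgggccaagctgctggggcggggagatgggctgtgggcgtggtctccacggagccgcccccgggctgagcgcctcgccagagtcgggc
Ephb1: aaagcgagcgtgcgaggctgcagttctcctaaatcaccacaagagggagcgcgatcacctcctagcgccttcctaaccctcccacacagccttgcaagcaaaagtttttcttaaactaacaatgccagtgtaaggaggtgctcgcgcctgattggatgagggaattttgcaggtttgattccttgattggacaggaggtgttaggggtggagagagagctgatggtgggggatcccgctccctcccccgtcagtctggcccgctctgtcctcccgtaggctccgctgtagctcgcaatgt
The motif occurred once in the Plxnd1 window, at position 78, and in none of the other 3. The GC content was 62.7% for Sema6c, 73.0% for Sema5b, 67.0% for Plxnd1 and 55.7% for Ephb1. Of 72 RefSeq windows of 56 members, 8 (11.1%) held the motif on either strand, against 14.7% of 32851 windows of all genes. The 8 members were Efnb2, Epha1, Epha2, Epha3, Plxnb1, Plxnd1, Robo2 and Sema4a. Member promoters had a median GC content of 64.2% and 19.5 CpG dinucleotides per window, against 52.7% and 7 for all windows.

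Among the Eph receptors, the leading receptor gene differed between the stages. Ephb1, a B class receptor, had 61.3 and 78.7 CPM in the E13.5 libraries, against 548 and 555 CPM in the E12.0 libraries. The 2 stages were far apart and the E12.0 libraries were nearly equal. Its log2 fold change was -2.98 ± 0.26 (SE) at an edgeR adjusted p of 2.28e-05, and it was the only lower call that was made in every setting tried. Epha7, an A class receptor known for signalling to and from ephrin-As, had 684 and 534 CPM at E13.5, against 431 and 476 CPM at E12.0. Its groups did not overlap, but the log2 fold change of 0.43 ± 0.25 was not called (edgeR adjusted p = 0.186). On log2(TPM + 1), a scale on which the median of all genes stood at 0.76, it was called at 1.67 (limma adjusted p = 0.000742).

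Per kilobase of effective length, the summed level of the 14 Eph receptor genes was 271 and 238 CPM per kb at E13.5, against 268 and 284 at E12.0. As TPM, which shares a fixed total among all genes, the sums were 601 and 517 at E13.5, against 296 and 398 at E12.0. Within that sum Ephb1 supplied 5.21% and 7.68% at E13.5, against 50.6% and 48.4% at E12.0. Epha7 supplied 64.8% and 58.2% at E13.5, against 31.8% and 30.6% at E12.0. The leading receptor gene was thus Epha7 in both E13.5 libraries and Ephb1 in both E12.0 libraries. Epha7 had a shorter effective length at E13.5 (3903 and 3853 bases) than at E12.0 (5054 and 5473 bases), which enters this per-kilobase share. By CPM without length, Ephb1 supplied 5.74% and 8.51% at E13.5, against 45.7% and 43.0% at E12.0.

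In all, 3 B class receptor genes were called higher. Ephb6, whose kinase domain is inactive, had 60.5 and 65.1 CPM at E13.5, against 14.3 and 10.2 CPM at E12.0. The groups stood well apart, with a log2 fold change of 2.36 ± 0.32 at an edgeR adjusted p of 0.000274. Ephb4, best known as the ephrin-B2 receptor of veins, had 113 and 117 CPM at E13.5, against 44.4 and 61.7 CPM at E12.0. Its log2 fold change was 1.12 ± 0.26 at an edgeR adjusted p of 0.00618, and without replicate 1 of E12.0 it was 0.88 and no longer called (adjusted p = 0.0632). Ephb3 had 47.2 and 45.1 CPM at E13.5, against 13.9 and 25.3 CPM at E12.0. The E13.5 libraries were close to each other, and the E12.0 libraries were both lower but apart. The log2 fold change was 1.23 ± 0.35 at an edgeR adjusted p of 0.0161, and without replicate 1 of E12.0 it was 0.85 and not called (adjusted p = 0.0965).

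Ephb2 and Epha4 were called lower, each close to the threshold. Ephb2, the B class receptor used in axon fasciculation and pathfinding, had 51.1 and 28.6 CPM at E13.5, against 77.3 and 67.3 CPM at E12.0, with a log2 fold change of -0.86 ± 0.32 at an edgeR adjusted p of 0.0478. Epha4, an A class receptor that also binds ephrin-Bs, had 31.9 and 28.2 CPM at E13.5, against 45.4 and 63.8 CPM at E12.0, with a log2 fold change of -0.86 ± 0.30 at an edgeR adjusted p of 0.0368. Neither gene's groups overlapped. Both calls were lost when single libraries were left out. Ephb2 was not called without replicate 2 of E13.5 (-0.50, adjusted p = 0.303), replicate 1 of E12.0 (-0.78, adjusted p = 0.165) or replicate 2 of E12.0 (-0.96, adjusted p = 0.0844). Epha4 was not called without replicate 1 of E13.5 (-0.95, adjusted p = 0.0827), replicate 2 of E13.5 (-0.78, adjusted p = 0.148) or replicate 2 of E12.0 (-0.60, adjusted p = 0.205). On log2(TPM + 1) the difference was 0.41 for Ephb2 and 0.01 for Epha4, neither of them called, so their sign depends on the scale. The median of all genes was 0.76 on that scale, and both genes lay below the all-gene median on either scale. The other 4 Eph receptors tested, Epha1, Epha2, Epha3 and Epha5, had at most 20.1 CPM in any library and were not called. Epha3 had 0 and 1.57 CPM at E13.5, against 0.413 and 4.36 CPM at E12.0, and was called lower without replicate 2 of E13.5 (adjusted p = 0.0139). Epha6, Epha8 and Epha10 did not pass the filter, with at most 12 counts summed over a stage.

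Among the ephrins, the most abundant gene was not called and 3 less abundant genes were. Efnb2, which encodes the transmembrane ligand of several EphB receptors, had 530 and 501 CPM at E13.5, against 451 and 460 CPM at E12.0. Its log2 fold change of 0.18 ± 0.23 was not called (edgeR adjusted p = 0.557). On log2(TPM + 1), where the median of all genes stood at 0.76, Efnb2 was called at 1.01 (limma adjusted p = 0.008). Efna1, a ligand of EphA receptors, had 43.9 and 56.5 CPM at E13.5, against 17.5 and 19.3 CPM at E12.0. The groups did not overlap and the log2 fold change was 1.45 ± 0.31 at an edgeR adjusted p of 0.00375.

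Efna5 and Efnb1 went the other way. Efna5, a ligand of EphA receptors known from retinotopic mapping, had 34.2 and 20.4 CPM at E13.5, against 82.1 and 122 CPM at E12.0. The lowest E12.0 library was above the highest E13.5 library, and the log2 fold change was -1.90 ± 0.33 at an edgeR adjusted p of 0.00117. Efnb1, an X-linked ligand of EphB receptors, had 30.4 and 24.6 CPM at E13.5, against 78.3 and 65.6 CPM at E12.0, with a log2 fold change of -1.39 ± 0.28 at an edgeR adjusted p of 0.00278. On log2(TPM + 1) neither was called, at -1.03 for Efna5 (limma adjusted p = 0.0609) and -0.52 for Efnb1 (limma adjusted p = 0.209). Efna4 had 30.1 and 22.1 CPM at E13.5, against 41.0 and 38.7 CPM at E12.0, and was not called (log2 fold change -0.61 ± 0.31, edgeR adjusted p = 0.132). Efna2, Efna3 and Efnb3 were not called either, Efna2 and Efnb3 at 28.1 to 40.6 CPM and Efna3 at 0.589 to 3.18 CPM over the 4 libraries.

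Summed over the 8 ephrin genes, the level was 220 and 219 CPM per kb at E13.5, against 216 and 217 at E12.0. Efnb2 made up 52.8% and 50.1% of it at E13.5, against 45.6% in each E12.0 library. Efna1 made up 15.5% and 20.0% at E13.5, against 6.06% and 6.63% at E12.0. Efna5 made up 4.06% and 2.43% at E13.5, against 9.78% and 14.4% at E12.0. On the TMM scale the summed ephrin level thus stood within a narrow range over the 4 libraries while the makeup differed. By TPM the same sums were 488 and 475 at E13.5, against 239 and 304 at E12.0.

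**Figure D2:**
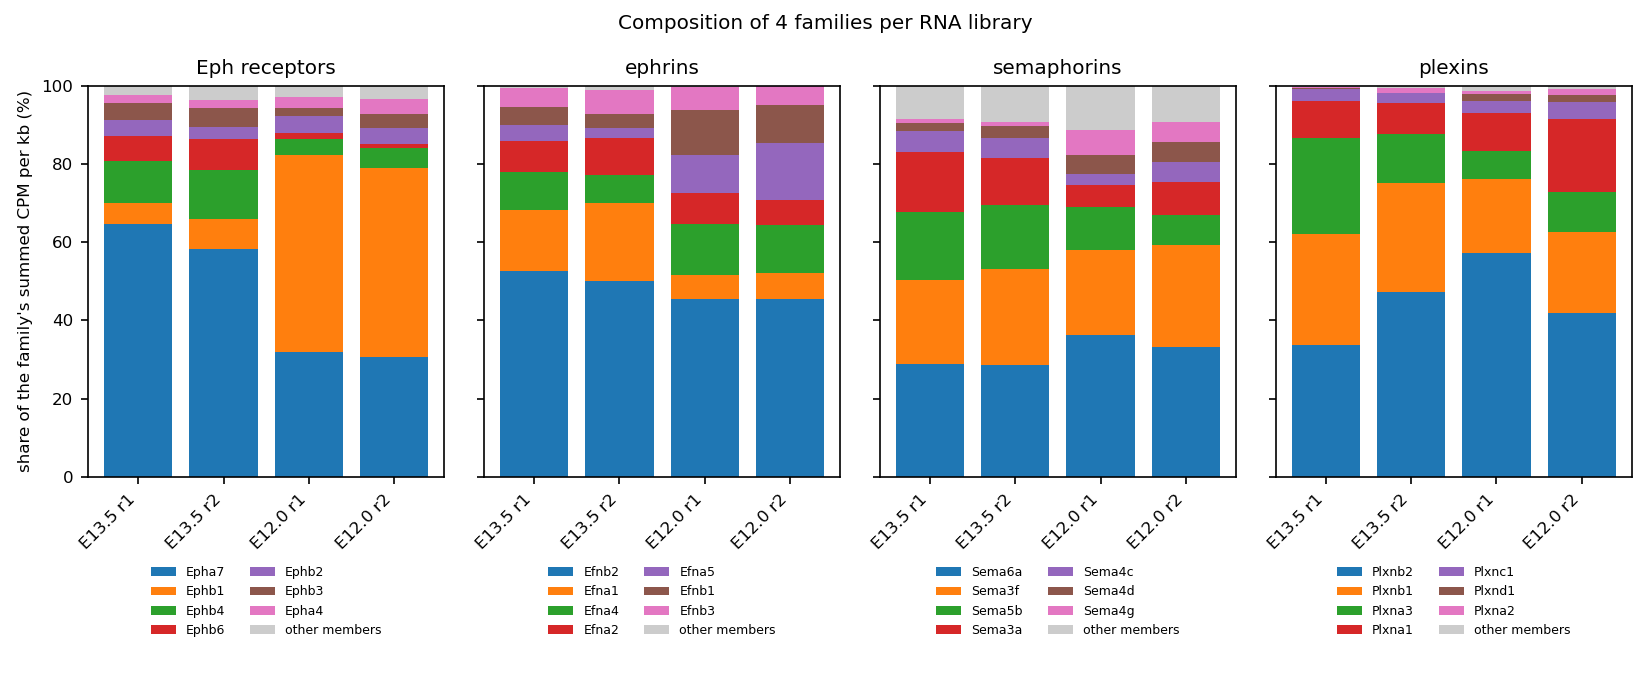
Share of each family's summed level (CPM per kb of effective length, percent) in each RNA library, with the 7 members of highest level coloured and the rest in grey; r1 and r2 are replicates 1 and 2. Epha7 holds 64.8% and 58.2% of the Eph receptor sum at E13.5, while Ephb1 holds 50.6% and 48.4% of it at E12.0; Efnb2 leads the ephrins and Sema6a the semaphorins in all 4 libraries.

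The semaphorins held the most higher calls of any family, with 8 of 17 tested genes higher, 1 lower and 8 not called, and a median log2 fold change of 0.84. Their summed level was 545 and 427 CPM per kb at E13.5, against 236 and 218 at E12.0. By CPM without length the difference was smaller, with sums of 1702 and 1411 at E13.5, against 917 and 860 at E12.0. Sema5b encodes a transmembrane class 5 semaphorin with thrombospondin repeats. It had 268 and 225 CPM at E13.5, against 47.0 and 39.7 CPM at E12.0, a log2 fold change of 2.51 ± 0.26 at an edgeR adjusted p of 5.32e-05. The groups lay several-fold apart, with close replicates in each. Its relative Sema5a differed by 0.09 ± 0.33 (edgeR adjusted p = 0.844), at 21.3 to 24.1 CPM in the 4 libraries.

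Of the secreted class 3, Sema3a, Sema3b and Sema3f were called higher. Sema3a, which repels axons through neuropilin-1, had 322 and 213 CPM at E13.5, against 71.3 and 95.6 CPM at E12.0, a log2 fold change of 1.68 ± 0.29 at an edgeR adjusted p of 0.00106. Sema3b had 17.1 and 17.7 CPM at E13.5, against 4.81 and 3.65 CPM at E12.0, a log2 fold change of 2.04 ± 0.46 at an edgeR adjusted p of 0.0051. Both were well separated between stages, Sema3b at a low level. Sema3f, which acts mainly through neuropilin-2, had 264 and 263 CPM at E13.5, against 140.3 and 155 CPM at E12.0. Its log2 fold change was 0.84 ± 0.23 at an edgeR adjusted p of 0.0144. The call was lost without replicate 1 of E12.0 (0.75, adjusted p = 0.109) or replicate 2 of E12.0 (0.91, adjusted p = 0.0548). Sema3c had 0.857 and 0.254 CPM at E13.5, against 2.61 and 3.18 CPM at E12.0, and missed the threshold (edgeR adjusted p = 0.0507), which it passed with RLE factors (-2.42, adjusted p = 0.0484). Sema3d was at 19.3 and 15.5 CPM at E13.5, against 10.6 and 7.89 CPM at E12.0, and was not called (edgeR adjusted p = 0.0966). Sema3e and Sema3g had no count at E13.5, and 6 and 1 summed counts at E12.0.

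The transmembrane class 6 genes Sema6c and Sema6d, ligands of A-type plexins, were also higher. Sema6c had 25.0 and 21.9 CPM at E13.5, against 2.61 and 3.65 CPM at E12.0, the largest log2 fold change among the members called higher (2.90 ± 0.45, edgeR adjusted p = 0.000609). Sema6d had 68.7 and 60.2 CPM at E13.5, against 19.9 and 20.1 CPM at E12.0, a log2 fold change of 1.68 ± 0.29 at an edgeR adjusted p of 0.00103. The more abundant Sema6a, at 503 and 387 CPM at E13.5 against 413 and 351 CPM at E12.0, overlapped between stages and was not called (0.22 ± 0.25, edgeR adjusted p = 0.501). On log2(TPM + 1), where its shorter effective length at E13.5 enters, Sema6a was called at 1.62 (limma adjusted p = 0.00073). The median of all genes on that scale was 0.76. Sema6b, at 5.19 and 5.38 CPM at E13.5 against 11.8 and 0.589 CPM at E12.0, was uncalled, and without replicate 1 of E12.0, which stood apart from replicate 2, it was called higher (3.13, adjusted p = 0.0321).

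In class 4, whose members signal chiefly through B-type plexins, 2 genes rose and 1 fell. Sema4c had 86.3 and 74.1 CPM at E13.5, against 23.1 and 38.7 CPM at E12.0, a log2 fold change of 1.37 ± 0.31 at an edgeR adjusted p of 0.00504. Sema4f had 21.1 and 20.6 CPM at E13.5, against 8.12 and 8.24 CPM at E12.0, a log2 fold change of 1.35 ± 0.39 at an edgeR adjusted p of 0.0172. Replicates of Sema4f were nearly equal within each stage. Its call was lost without replicate 1 of E13.5 (adjusted p = 0.0548) or replicate 1 of E12.0 (adjusted p = 0.0509). Sema4g had 25.1 and 17.5 CPM at E13.5, against 62.2 and 48.5 CPM at E12.0, the only lower call of the family (-1.37 ± 0.32, edgeR adjusted p = 0.00573). It was not called on log2(TPM + 1), at -0.55 (limma adjusted p = 0.262). Sema4b had 9.72 and 10.2 CPM at E13.5, against 27.6 and 14.0 CPM at E12.0, and was not called (edgeR adjusted p = 0.0685). It was called lower without replicate 2 of E12.0 (-1.48, adjusted p = 0.0229) and with DESeq2 (-1.11, adjusted p = 0.0471). Sema4a, at no more than 1.29 CPM, and Sema4d, at 42.8 to 55.2 CPM, were not called, and Sema7a, the membrane-anchored class, had 1 count in all.

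Plexins, the semaphorin receptors, moved in both directions, with 3 of 8 tested genes higher, 2 lower and 3 not called. Plxnb2 had 136 and 189 CPM at E13.5, against 42.8 and 67.9 CPM at E12.0, a log2 fold change of 1.55 ± 0.30 at an edgeR adjusted p of 0.00211. Plxnb1, a receptor of Sema4d, had 245 and 199 CPM at E13.5, against 114 and 129 CPM at E12.0, a log2 fold change of 0.87 ± 0.24 at an edgeR adjusted p of 0.0146. Plxna3, a class 3 receptor partner of neuropilin-2, had 78.4 and 40.1 CPM at E13.5, against 20.5 and 28.7 CPM at E12.0, a log2 fold change of 1.27 ± 0.37 at an edgeR adjusted p of 0.0176. By CPM, none of these 3 genes overlapped between stages. Plxna3 was lost without replicate 1 of E13.5 (0.71, adjusted p = 0.208) or replicate 1 of E12.0 (1.03, adjusted p = 0.112). Plxnb1 was lost without replicate 1 of E13.5 (adjusted p = 0.0821), replicate 1 of E12.0 (adjusted p = 0.111) or replicate 2 of E12.0 (adjusted p = 0.0519). The effective length of Plxnb2 was 3583 and 4171 bases at E13.5, against 1052 and 2180 bases at E12.0. Per kilobase its means were therefore close, 41.7 CPM per kb at E13.5 and 35.9 at E12.0. On that scale the Plxnb2 libraries overlapped, at 38.0 and 45.3 at E13.5, against 40.7 and 31.2 at E12.0.

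Plxnd1, the receptor of Sema3e, had 0.572 and 0.212 CPM at E13.5, against 8.94 and 3.88 CPM at E12.0. Its log2 fold change of -4.01 ± 0.87 at an edgeR adjusted p of 0.00386 was the largest of any called member, at a low level and with the widest SE among called members. Without replicate 1 of E12.0 it was -3.31 and not called (adjusted p = 0.0686), and without replicate 1 of E13.5 it was -4.85. Plxna4 had 2.67 and 2.42 CPM at E13.5, against 10.9 and 8.0 CPM at E12.0, a log2 fold change of -1.89 ± 0.58 at an edgeR adjusted p of 0.0216. That call was lost without replicate 2 of E13.5 (-1.82, adjusted p = 0.0596) or replicate 1 of E12.0 (-1.67, adjusted p = 0.0962). On log2(TPM + 1) neither was called, at -0.94 for Plxnd1 and -0.22 for Plxna4. Plxna1 had 95.7 and 66.9 CPM at E13.5, against 62.0 and 124 CPM at E12.0, with overlapping groups and no call (-0.20 ± 0.34, edgeR adjusted p = 0.663). Plxna2, at 2.05 to 11.9 CPM, and Plxnc1, at 14.6 to 23.7 CPM, were not called. Plxnb3 did not pass the filter, with 30 counts at E13.5 and 3 at E12.0.

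**Figure D3:**
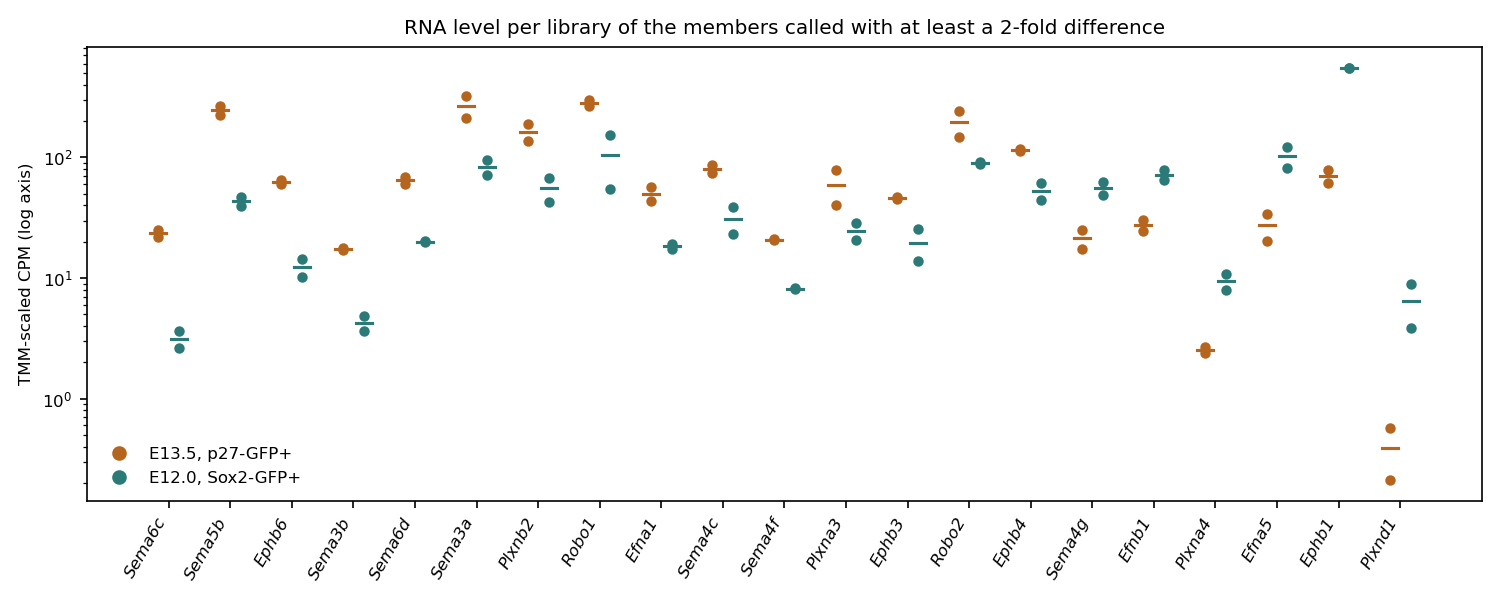
RNA level of the 21 members called with at least a 2-fold difference, as TMM-scaled CPM on a log axis; points are libraries (2 per stage) and short bars are means. Genes are ordered by log2 fold change from Sema6c on the left to Plxnd1 on the right, and Ephb1 at E12.0 (548 and 555 CPM) is the highest. The points of the stages do not overlap in any of the 21. Choosing called genes from these same libraries favours that separation, so it adds no support.

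Slit2 and both Robos tested were higher at E13.5. Slit2, a secreted repellent, had 106 and 79.2 CPM at E13.5, against 41.8 and 52.3 CPM at E12.0, a log2 fold change of 0.98 ± 0.27 at an edgeR adjusted p of 0.0142. The Robo1 receptor had 301 and 268 CPM at E13.5, against 153 and 55.0 CPM at E12.0, a log2 fold change of 1.45 ± 0.40 at an edgeR adjusted p of 0.0132. Robo2 had 244 and 149 CPM at E13.5, against 92.3 and 88.4 CPM at E12.0, a log2 fold change of 1.12 ± 0.28 at an edgeR adjusted p of 0.00867. By CPM no groups overlapped, but each of these calls was lost when single libraries were left out. Slit2 was lost without replicate 1 of E13.5 (0.76, adjusted p = 0.11) or replicate 1 of E12.0 (0.81, adjusted p = 0.106). Robo1 was lost without replicate 2 of E12.0 (0.89, adjusted p = 0.0616) and was 2.35 without replicate 1 of E12.0. Robo2 was lost without replicate 1 of E13.5 (0.73, adjusted p = 0.0827), replicate 1 of E12.0 (1.13, adjusted p = 0.0524) or replicate 2 of E12.0 (1.08, adjusted p = 0.0565). Effective lengths moved in opposite ways here, to 0.603 of the E12.0 value for Slit2 and to 1.68 of it for Robo2. The mean per-kilobase level was 23.4 at E13.5 and 7.16 CPM per kb at E12.0 for Slit2, and 49.7 at E13.5 and 39.8 at E12.0 for Robo2. On that scale the Robo2 libraries overlapped, at 61.8 and 37.6 at E13.5, against 32.9 and 46.7 at E12.0. Slit3 had 18.2 and 7.46 CPM at E13.5, against 16.6 and 20.8 CPM at E12.0, and was not called (-0.55 ± 0.47, edgeR adjusted p = 0.365). Slit1 had no count at E13.5 and 4 counts at E12.0. Robo3, known from commissural axons, had 35 counts at E13.5 and none at E12.0, and was called higher when no filter was applied (adjusted p = 0.0446). Robo4, an endothelial Robo, had none at either stage.

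Netrin RNA was scarce, at most 5.72 CPM in any library, while Unc5b and Unc5c were readily detected. Ntn4, a basement membrane netrin, had 2.67 and 5.72 CPM at E13.5, against 1.10 and 2.12 CPM at E12.0, and was not called (1.37 ± 0.76, edgeR adjusted p = 0.163). Ntn1, the classical chemoattractant, had 0.714 and 1.06 CPM at E13.5, against 0.963 and 3.30 CPM at E12.0, and was not called (-1.26 ± 0.88, edgeR adjusted p = 0.265). Ntn5 had no count. Among the Unc5 receptors, which mediate repulsion by netrin-1, Unc5b had 82.6 and 70.1 CPM at E13.5, against 110 and 151 CPM at E12.0. Its log2 fold change was -0.77 ± 0.26 at an edgeR adjusted p of 0.0327, and on log2(TPM + 1) it was 0.07 and not called. The call was also lost without replicate 1 of E13.5 (-0.89, adjusted p = 0.0534), replicate 2 of E13.5 (-0.66, adjusted p = 0.141) or replicate 2 of E12.0 (-0.53, adjusted p = 0.21). Unc5c had 236 and 121 CPM at E13.5, against 210 and 198 CPM at E12.0, and was not called (-0.19 ± 0.31, edgeR adjusted p = 0.642). The E13.5 replicates of Unc5c differed more from each other than the stage means did. Unc5d, at 10.2 and 15.6 CPM at E13.5 against 19.5 and 21.1 CPM at E12.0, was not called, and Unc5a had 29 counts at E13.5 and none at E12.0.

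Among other genes of the pathway, calls went in both directions. Of 18 co-receptors and cofactors, 13 were tested, 3 were higher, 3 lower and 7 not called, with a median of 0.19. The class 3 co-receptors went in opposite directions. Nrp2, which pairs with Sema3f, had 20.4 and 13.6 CPM at E13.5, against 87.6 and 72.2 CPM at E12.0 (log2 fold change -2.23 ± 0.31, edgeR adjusted p = 0.000333). Nrp1, which pairs with Sema3a, had 9.86 and 12.6 CPM at E13.5, against 2.48 and 4.94 CPM at E12.0 (1.59 ± 0.57, edgeR adjusted p = 0.0411), and was not called without replicate 2 of E13.5 (adjusted p = 0.134) or replicate 1 of E12.0 (adjusted p = 0.159). Neo1, the neogenin receptor, had 144 and 138 CPM at E13.5, against 526 and 348 CPM at E12.0 (-1.63 ± 0.27, edgeR adjusted p = 0.000909). Dcc had 1.33 and 0.424 CPM at E13.5 and no count at E12.0, and was not tested. Of 26 genes acting inside the cell, 23 were tested, 5 were higher, 10 lower and 8 not called, with a median of -0.22. The split depends on the scale, since on log2(TPM + 1) 9 of them were higher and 2 lower. On that scale all genes were shifted up as well, with a median of 0.76. Among all genes tested, 22.4% were higher and 23.5% lower in edgeR's test, shares that are no background for the counts on log2(TPM + 1). The kinase genes Pak1 and Pak3 and the collapsin response gene Crmp1 had the largest called changes. Pak1 had 82.6 and 124 CPM at E13.5, against 592 and 452 CPM at E12.0 (-2.34 ± 0.29, edgeR adjusted p = 0.000165). Pak3 had 2.24 and 5.64 CPM at E13.5, against 22.8 and 34.0 CPM at E12.0 (-2.85 ± 0.51, edgeR adjusted p = 0.00141), and was not called on log2(TPM + 1), at -0.44. Crmp1 had 0.0476 and 1.61 CPM at E13.5, against 7.43 and 7.53 CPM at E12.0 (-3.15 ± 1.06, edgeR adjusted p = 0.0332), and was not called without either E12.0 library (adjusted p = 0.0864 without replicate 1 and 0.0909 without replicate 2).

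Open chromatin around the members was read from the authors' ATAC peak lists, merged over the 6 libraries and assigned to the nearest protein-coding gene within 50 kb. Of 2734 regions assigned to members, 227 (8.3%) were E13.5-specific, meaning that each of the 3 E13.5 lists and no E12.0 list had them, against 6.6% of all 335380 regions. None was held by the 3 E12.0 libraries alone, a class with 0.054% of all regions. All regions, here and for H3K27ac and Tead, include those farther than 50 kb from any protein-coding gene. Regions present in all 6 libraries made up 9.36% of member regions, against 10.1% of all. By RNA call, the E13.5-specific share was 8.52% for members called higher, 7.58% for those called lower, 8.75% for those not called and 7.28% for those not tested. Robo2 had the most such regions (26 of 223), followed by Robo1, Sema5a and Unc5d with 13 each, all of them genes with long spans. Peaks on unplaced contigs stood in the E12.0 ATAC lists (90, 75 and 58 peaks) and in no E13.5 list. The E13.5 ATAC lists were also longer, with 151927 to 161637 distinct intervals per library, against 99248 to 119970 at E12.0. The part of either in these shares was not tested. Without replicate 2 of E12.0, the count at E13.5 was 344.

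The 3 E13.5-specific ATAC regions shown here were ranked by the smallest of their folds over background, as given by the authors, and lay at 2 members with opposite RNA changes. One was at chr17:62557077-62557947 (GRCm38), outside the Efna5 span by 45010 bp, with folds of 15.3 to 22.8 in the 3 libraries. Another was inside Efna5 at chr17:62758325-62758906, with folds of 7.45 to 9.23. The Slit2 region at chr5:48184458-48185199 lay inside that gene, with folds of 8.88 to 10.9. Efna5 RNA was lower and Slit2 RNA higher at E13.5. By largest fold instead, regions of Ntn4 (16.5), Unc5d (12.9), Sema5a (12.4), Sema6d (12.1), Plxna4 (11.2) and Robo2 (10.99) came before the Slit2 region.

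For H3K27ac, a histone mark of active promoters and enhancers, 2312 merged regions were assigned to members. Of these 50 (2.16%) were E13.5-specific by the same definition, against 1.4% of all 267936 regions, and 29 (1.25%) were E12.0-specific, against 0.877% of all. Regions acetylated in all 4 libraries made up 1.34% of member regions, against 1.97% of all. Ranked again by smallest fold, the first acetylated E13.5 region lay inside Sema5a at chr15:32288722-32289325 (smallest fold 3.68). Next was chr5:13986781-13987145, outside the Sema3e span by 38131 bp (smallest fold 3.51). The third, chr17:62556761-62558041, covers the open E13.5 region beside Efna5 described above, with folds of 3.41 to 3.55. The leading E12.0 regions lay inside Sema5a at chr15:32265658-32266479 (smallest fold 3.47), Ephb1 at chr9:102125669-102126303 (3.38) and Robo1 at chr16:72924297-72925003 (3.22). Only Ephb1 of these 3 genes had lower RNA at E13.5, while Robo1 was higher and Sema5a was not called. At Sema5a the acetylated E12.0 region overlapped an E13.5-specific ATAC region at chr15:32265568-32266120. By the peak lists, the mark and the open region were thus listed at different stages there. Absence from a list does not show absence of signal, and at a −log10 q of at least 5 no stage-specific H3K27ac region of a member remained. These counts rest on few libraries: without 1 E13.5 library the E13.5 count was 576 or 658, and without 1 E12.0 library the E12.0 count was 562 or 304.

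Tead CUT&RUN was made at E12.0 alone, so no stage comparison exists. Of 526 regions assigned to members, 6 (1.14%) were held by both libraries, against 2.12% of all 74967 regions. They lay inside Efna5 at chr17:62694701-62695809 (folds of 2.62 to 3.18), Ephb1 at chr9:102133561-102134691 (2.61 to 2.72), Slit3 at chr11:35537382-35538091 (2.57 to 2.58), Plxnc1 and, for the last 2, Robo1. Efna5 and Ephb1 were among the 9 members called lower at E13.5, and Robo1 among the 18 called higher. No Tead region reached a −log10 q of 5 in both lists, and a single list held 93 (replicate 1) or 440 (replicate 2) member regions.

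**Figure D4:**
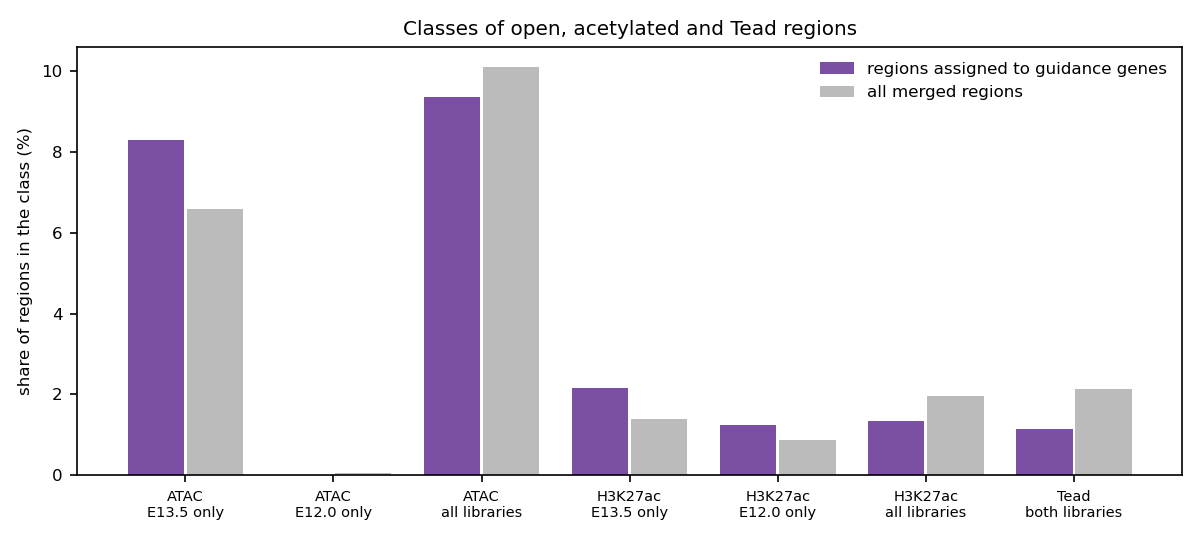
Share of merged regions (percent) in each class of presence over libraries, for regions assigned to guidance genes beside all merged regions; E13.5 only and E12.0 only mean present in every list of the named stage and absent from every list of the other. The member shares of stage-specific ATAC and H3K27ac regions are 8.3% and 2.16% at E13.5, with 6.6% and 1.4% among all regions.

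Promoter windows were mostly open at both stages. Of the 56 members with a RefSeq window, 45 (80.4%) overlapped an ATAC peak in all 6 libraries, and none was open in all 3 libraries of 1 stage and in no library of the other. The window of Plxnb3 met a peak in 1 E13.5 library and no E12.0 library, and that of Sema3a in no E13.5 library and 1 E12.0 library. An open region near the start of the Sema3a span, chr5:13125158-13126276, was nevertheless held by all 6 libraries, so the window result does not show closed chromatin there. Of the members tested, 39 of 45 (86.7%) were open in all libraries, against 88.3% of 10042 protein-coding genes tested. The share was 15 of 16 for members called higher and 7 of 8 for members called lower. The windows of Epha7 and Sema4b carried H3K27ac in all 4 libraries, and that of Plxna2 in the E13.5 libraries alone. These are 4.44% and 2.22% of the 45 members tested, against 9.84% and 0.697% of protein-coding genes tested. No member window was held by both Tead libraries, against 3.28% of protein-coding genes tested.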

How the data were processed

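The 16 libraries were grouped by their titles. Per the labels' protocols, RNA was poly(A)-selected and made into TruSeq libraries, and replicate 1 of the E12.0 H3K27ac and Tead libraries was made with a different kit (KAPA HTP) from the other CUT&RUN libraries (Accel 2S Plus). The authors' RNA tables hold expected counts, estimated reads per Ensembl gene, with length and effective length per the file headers. The peak lists, 1 per library, give a fold ratio over background with −log10 p and −log10 q, as deposited by the authors. The deposited score column did not enter. The submitters' processing notes list STAR, MACS2 and UMI-tools, and mm10, also called GRCm38, as the build. The counting tool is not given in these sources.

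Expected counts were rounded, filtered (filterByExpr), TMM-scaled and compared by the quasi-likelihood F test of edgeR 4.0.16, 2 libraries against 2 without a covariate, with Benjamini-Hochberg adjustment over 15982 genes. TPM was computed from expected counts and effective lengths and tested with limma 3.58.1 as log2(TPM + 1) or log2(TPM + 0.1). DESeq2 1.42.0, other scalings, no filter, left-out replicates and a replicate block were the other alternatives. The test was checked on simulated counts. A count of 10 corresponded to 0.424 to 1.38 CPM. Overlap of the groups was read gene by gene on CPM without length and is a description, not a test. The chi-square between replicates, per degree of freedom, was 52.4 at E13.5 and 31.1 at E12.0, above sampling noise, and each library was counted once. Counts of Epha1, Ephb2, Efna3, Efna4, Sema3a, Sema4c, Sema6a, Plxna1, Plxnb1, Unc5c and Robo2 were not all whole, so reads shared with other genes were split by estimation. Symbols were matched for 48349 identifiers. Intervals were merged at 1 bp overlap and assigned to RefSeq spans of GRCm38.p6 within 50 kb. Gene positions and promoters are RefSeq's. Full statistics were given for members called at 2-fold or more and the 2 most abundant others per family, and for the 3 called genes of largest change in each of 2 pathway lists; further members were named after their values were seen. The members and lists were chosen with earlier results of these data known.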

Additional observations from a re-analysis of the deposited data

How the results depend on the processing

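The 18 higher calls held under DESeq2, RLE and upper-quartile scaling, no filter on low counts, mitochondrial genes left out, both TPM scales and without replicate 2 of E13.5. Ephb6, Efna1, Sema3a, Sema3b, Sema4c, Sema5b, Sema6c, Sema6d and Plxnb2 stayed higher and Ephb1 stayed lower in all 12 other settings, and no called member was called the opposite way in any of them. The lower calls depended most on scale. With log2(TPM + 1), 6821 of all genes were higher and 2101 lower, and with log2(TPM + 0.1) 6524 and 2005. The median of all genes was then 0.76 and 0.90, and that of the members 0.88 and 1.01. On either TPM scale 1 member was lower, also at 2-fold, and 24 (pseudocount 1) or 23 (0.1) were higher at 2-fold. The share of all genes at 2-fold was not counted on these scales, where the all-gene median itself lay near the 2-fold limit. The 2-fold counts therefore do not set the members apart from other genes. Among the genes acting inside the cell 9 were then higher, and 2 (pseudocount 1) or 1 (0.1) lower. The differences that changed sign on log2(TPM + 1) were Ephb2 0.41, Efna4 0.23, Plxna1 0.64, Unc5b 0.067, Unc5c 0.95, Slit3 1.11, Epha4 0.01, Epha1 0.47, Epha2 0.26, Sema6b 0.84 and Unc5d 0.23, and on log2(TPM + 0.1) they were 0.43, 0.24, 0.69, 0.071, 0.97, 1.22, 0.02, 0.51, 0.40, 1.60 and 0.28. The cause was not tested. The member and all-gene medians were 0.25 and 0.12 with upper-quartile factors and 0.26 and 0.13 with no filter, and RLE factors left 1 co-receptor higher.

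Leaving out 1 RNA library gave 2341 to 2751 genes higher, 11 to 18 members higher, medians of 0.15 to 0.39 over members and 0.011 to 0.12 over all genes, 0 to 2 co-receptors higher and 3 to 6 intracellular genes higher. Plxna1 ran from -0.63 to 0.39 and Unc5c from -0.74 to 0.21. Plxna1 turned to 0.04 without replicate 2 of E13.5 and to 0.39 without replicate 2 of E12.0, and Unc5c to 0.21 without replicate 2 of E13.5.

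The deviations of same-numbered libraries correlated at 0.003 across genes, so no effect shared by replicate number was seen. That value cannot tell whether same-numbered libraries were prepared together. With replicate number as a block, all 18 higher and 9 lower calls were made again.

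Without 1 library the stage-specific ATAC regions of members numbered 251 to 344 at E13.5 and 0 to 10 at E12.0, the H3K27ac regions 54 to 658 at E13.5 and 35 to 562 at E12.0, and the Tead regions 93 to 440. A −log10 q of at least 5 left 0 H3K27ac regions at E13.5, 0 at E12.0 and 0 Tead regions, and requiring an interval to cover at least 0.5 of a region left 19 at E12.0. Expression below about 1 CPM, as for Plxnd1 and one of the Ntn1 libraries at E13.5, rests on few counts.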
